A study of Mus musculus with 2 samples.

Results

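The lysosomal hydrolases and membrane proteins described here were a list of 42 mouse genes. They were chosen by name for their place or role in the lysosome, with no threshold on their values. Earlier results of these data were known when they were chosen. They were examined in CD47 KO and WT mice, in white matter dissected from the optic tract together with the optic nerve. Of the 42 genes, 41 gave a signal above background on at least 1 array, out of 12473 such genes among the 18193 genes with a probe set. The value of a gene was the MAS5 signal of its brightest probe set, a linear intensity that Affymetrix software computes from a group of short probes placed mostly near the 3' end of a transcript. Background was set at 106.4, the 50th percentile of all signals of both arrays, and is called the floor.

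The comparison asks how expression in white matter differs when CD47 is missing, the membrane protein that engages SIRPα, an inhibitory receptor of myeloid cells such as microglia. WT RNA came from male wild-type mice of 13 to 15 weeks and CD47 KO RNA from male CD47 null mice of 12 to 15 weeks, whose deletion is not limited to a cell type. For each genotype the RNA of several animals was pooled and hybridised to 1 array. The series description counts 5 WT and 4 CD47 KO animals and the labelling protocol counts 4 and 5. With 1 pool per genotype there is no replicate check and no test, so every ratio below compares these pools and no p-value is given.

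Lysosomes are acidic organelles that break down material taken up from outside the cell and worn-out parts of the cell itself. Soluble hydrolases reach them largely through a mannose 6-phosphate tag, while heavily glycosylated membrane proteins line the inside of their membrane, and transporters carry the products back to the cytosol. In white matter, phagocytic microglia digest myelin debris in lysosomes, and inherited loss of several of the enzymes that degrade myelin lipids causes leukodystrophy.

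Oligodendrocyte markers were bright on both arrays. Neuronal and pituitary markers were measured as well, so the markers were not those of white matter alone. Of the oligodendrocyte markers, Mbp read 51510 in WT and 55271 in CD47 KO, and the 6 measured markers together summed to 172111 and 185149. The 3 probe sets of Cd47 above the floor in both arrays kept between 34.3% and 39.5% of the WT signal on the CD47 KO array, and whether they lie inside the disrupted part of the gene was not checked here. All 9 measured neuronal markers were lower in CD47 KO. Summed signals of the 10 on the array, with Slc17a7 under the floor counted in, were 16353 in WT and 8448 in CD47 KO. Of the 5 measured pituitary markers 3 were higher and 2 lower, and they ranged from Gh, which went from 2191 to 6908, to Cga, which went from 460.2 to 184.6. How far such differences in the dissected tissue enter the lysosomal values was not tested.

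Most genes of this list were somewhat higher in CD47 KO white matter and a few were clearly higher. This does not extend to lysosomal genes at large, as 119 measured genes of other lysosomal lists, described below, had a median log2 ratio of 0.02. The ratio of the CD47 KO to the WT signal, on the log2 scale, was above 0 for 34 of the 41 measured genes, where 46.8% of all measured genes were above 0. The median log2 ratio of the 41 was 0.25, which is 1.19-fold, beside -0.02 for all measured genes. Cd68 and Gusb were over 2-fold higher, and over 2-fold higher were 1.21% of all measured genes. None was over 2-fold lower, against a background of 0.818%. Over 1.5-fold higher were 7 of the 41, namely Cd68, Gusb, Laptm5, Tfeb, Grn, Ctsa and Hexa. The background of genes over 1.5-fold higher was 4.02%, or 3.17% of the 9589 genes within the range of mean signal that the lysosomal genes span. None of the 41 was over 1.5-fold lower, against a background of 4.68%. Of the 9589 genes of like signal, 316 were over 1.5-fold lower and 304 over 1.5-fold higher.

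**Figure D1:**
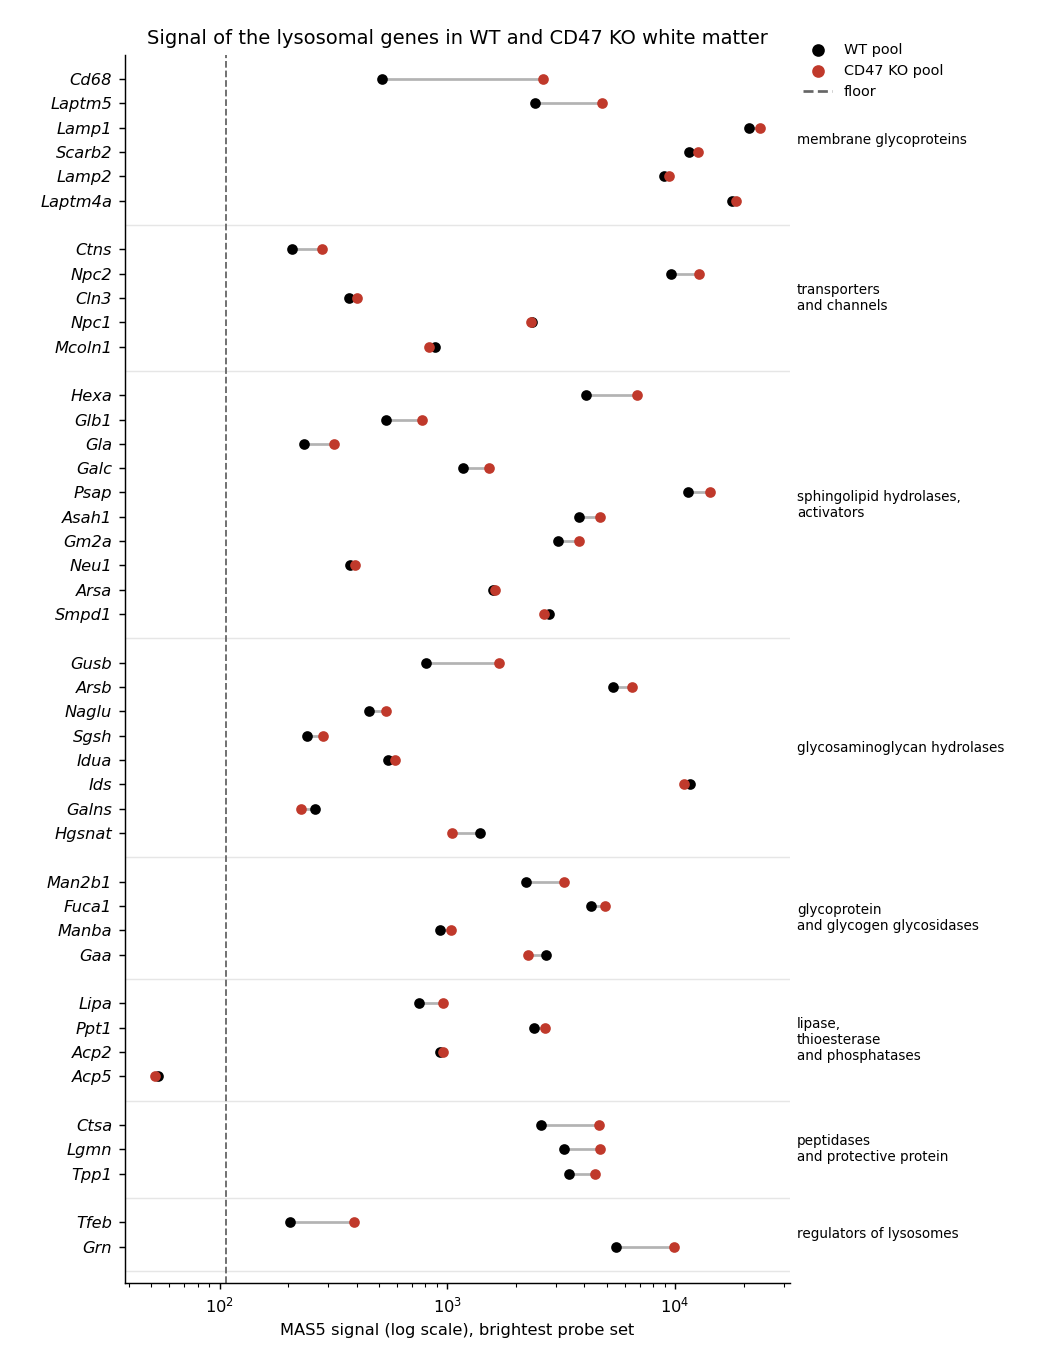
MAS5 signal (log scale) of the brightest probe set of each of the 42 lysosomal genes in the WT pool (black) and the CD47 KO pool (red), grouped by role, with the floor of 106.4 as a dashed line. Each point is 1 array, so there is no error bar. Cd68 has the widest gap, most other pairs lie close together with the red point to the right, and only Acp5 lies under the floor.

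The sole repeat measurement on these arrays is that of different probe sets for the same gene. Over 11653 pairs of probe sets in 4740 genes, the difference between their log2 ratios had an SD of 0.36, which covers neither mice nor hybridisations. Higher by more than this SD were 15 of the 41 lysosomal genes, beside 9.44% of all measured genes. Lower by more than it was 1 gene, Hgsnat, beside 12.6% of all measured genes. The other 25 lay within it, 19 of them above 0 and 6 below, and 9 genes had a log2 ratio within 0.1 of 0. The rule asked for a signal above the floor on at least 1 array, and all 41 were above it on both, the lowest signal being 203.5 for Tfeb in WT. No ratio of a measured lysosomal gene is therefore a bound.

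**Figure D2:**
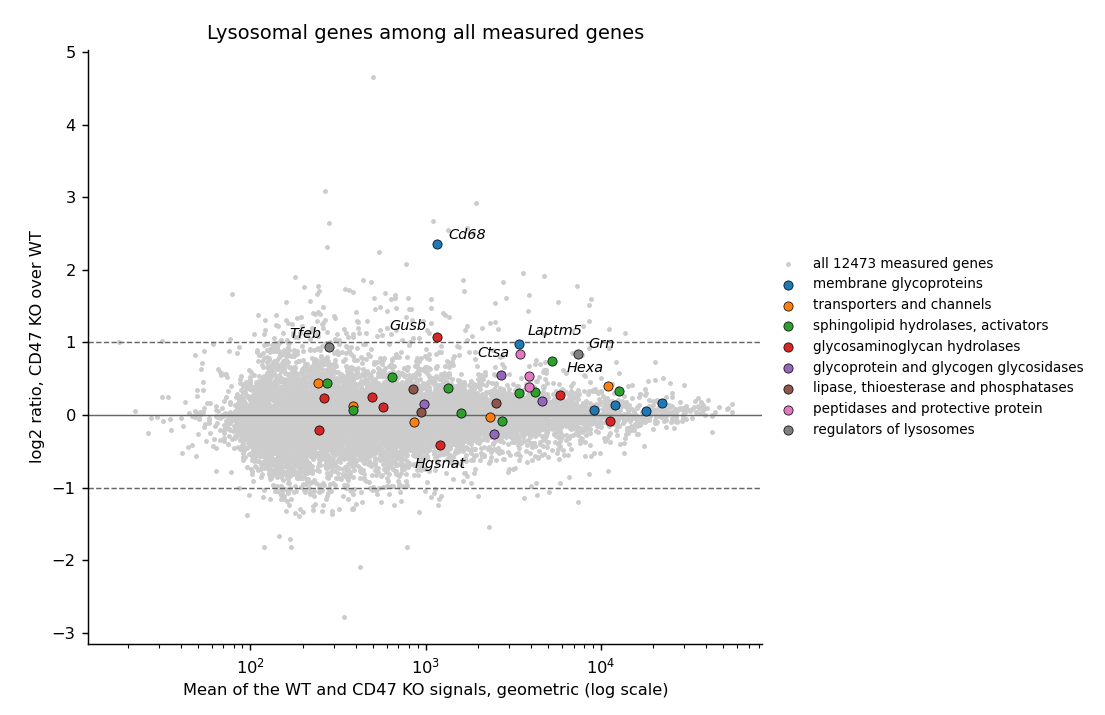
Log2 ratio (CD47 KO over WT) against the geometric mean of both signals (log scale) for all 12473 measured genes (grey, ratios taken after signals under the floor were set to it) and the 41 lysosomal genes (coloured by role). Dashed lines mark 2-fold. Cd68 and Gusb lie above the upper line, and no lysosomal gene approaches the lower one.

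The membrane glycoproteins held both the gene with the highest ratio of the list and some with hardly any difference. Cd68, a LAMP family glycoprotein that is abundant in the lysosomes of macrophages and microglia, read 516.3 in WT and 2637 in CD47 KO. That is 5.11-fold higher, a log2 ratio of 2.35, which was the 9th highest of the 12473 measured genes. It was read by 1 probe set only. Laptm5, a lysosomal transmembrane protein found mainly in blood cells and microglia, went from 2421 to 4767, or 1.97-fold. Its 5 probe sets did not agree, with log2 ratios from -0.24 to 0.98. The next brightest went from 901.4 to 1739, a log2 ratio of 0.95, and another gave 0.64. The remaining pair, both dimmer, gave -0.09 and -0.24. The 3 with the higher ratios carry a suffix that marks possible cross-hybridisation, as does the one at -0.24.

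The 4 other membrane glycoproteins differed little. Lamp1, a main structural glycoprotein of the lysosomal membrane, went from 21062 to 23633, a log2 ratio of 0.17. Its relative Lamp2, which also takes part in the import of proteins for breakdown, went from 8965 to 9417, a log2 ratio of 0.07 with a range from -0.15 to 0.21 over 4 probe sets. Neither of these broadly expressed LAMP proteins had a gap like that of Cd68. Scarb2, the membrane receptor that carries glucocerebrosidase to lysosomes, went from 11516 to 12618, a log2 ratio of 0.13. Laptm4a, a broadly expressed relative of Laptm5, went from 17825 to 18536, a log2 ratio of 0.06. All 6 membrane glycoproteins were above 0, with a median of 0.15.

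Among the 5 transporters and channels none was over 1.5-fold in either direction, beside 4.02% of all measured genes higher and 4.68% lower. So few genes would seldom hold one at these shares. Npc2, the soluble protein that binds cholesterol inside the lysosome, went from 9637 to 12695, or 1.32-fold, and its 3 probe sets above the floor gave log2 ratios from 0.15 to 0.56. Npc1, the membrane protein that takes cholesterol over from Npc2 for export, had 2362 in WT and 2324 in CD47 KO, a log2 ratio of -0.02. Partners in the same export step were thus read differently, with a difference close to the spread between probe sets of a gene. Npc1 was read by a single probe set. Ctns, the exporter of cystine, went from 208.7 to 282.4, a log2 ratio of 0.44. Cln3, a membrane protein whose loss causes juvenile neuronal ceroid lipofuscinosis, went from 369.6 to 401.0, a log2 ratio of 0.12, while its dimmer probe set went the other way, from 217.8 to 132.3. Mcoln1, the calcium release channel of the lysosome, went from 883.0 to 828.9, a log2 ratio of -0.09, and its other probe set gave 0.12. The median of the 5 was 0.12.

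The enzymes and activators of sphingolipid breakdown, which include those that degrade myelin lipids, were mostly higher by modest amounts. Of the 10 genes 9 were above 0, with a median log2 ratio of 0.32. Hexa, the α subunit of β-hexosaminidase A, went from 4068 to 6785, or 1.67-fold, and was the only one over 1.5-fold. Gm2a, the activator that presents GM2 ganglioside to this enzyme, went from 3066 to 3787, a log2 ratio of 0.30, with 0.04 by its dimmer probe set. Glb1, the β-galactosidase acting one step earlier on GM1 ganglioside, went from 537.5 to 774.8, or 1.44-fold. The genes of ganglioside breakdown named so far were all above WT, and only Hexa passed 1.5-fold.

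Galc, the enzyme that degrades the main galactolipid of myelin and is lost in Krabbe disease, went from 1174 to 1524, a log2 ratio of 0.38. Arsa, the sulfatase that acts on myelin sulfatide and is lost in metachromatic leukodystrophy, had 1580 in WT and 1613 in CD47 KO, a log2 ratio of 0.03. The 2 leukodystrophy enzymes thus had different readings, with a difference close to the spread between probe sets of a gene. Psap, the precursor of the saposins that help several of these enzymes, went from 11343 to 14281, a log2 ratio of 0.33, with 0.30 by its other probe set.

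Gla, the α-galactosidase lost in Fabry disease, went from 234.0 to 318.0, a log2 ratio of 0.44, and its other probe set, close to the floor, gave -0.23. Asah1, acid ceramidase, went from 3775 to 4684, a log2 ratio of 0.31. Neu1, the lysosomal sialidase, went from 373.8 to 392.6, a log2 ratio of 0.07. The gene with a lower reading was Smpd1, acid sphingomyelinase, with 2794 in WT and 2644 in CD47 KO. Its log2 ratio was -0.08 by this probe set and -0.60 by a dimmer one, which went from 356.9 to 234.9.

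The hydrolases of glycosaminoglycans were split. Gusb, β-glucuronidase, went from 803.7 to 1691, or 2.10-fold, and its second probe set went from 202.6 to 349.1, a log2 ratio of 0.79. Both readings of Gusb were thus well above WT. The group also held Hgsnat, the membrane enzyme that acetylates heparan sulfate ends, which went from 1389 to 1044, a log2 ratio of -0.41. It was the lowest ratio of the list and was read by 1 probe set. Its neighbours in heparan sulfate breakdown were slightly above WT. Naglu, the glucosaminidase that follows Hgsnat, went from 453.2 to 538.8, a log2 ratio of 0.25. Sgsh, the sulfamidase that precedes it, went from 241.2 to 284.1, a log2 ratio of 0.24.

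Ids, a sulfatase, and Idua, an iduronidase, act one after the other on dermatan and heparan sulfate. Idua went from 547.6 to 588.3, a log2 ratio of 0.10, and its dimmer probe set went from 154.1 to a value under the floor. Ids had 11615 in WT and 10941 in CD47 KO, a log2 ratio of -0.09, with 0.07 by its other probe set above the floor. In each gene these probe sets differed in sign, in Ids by less than the spread between probe sets of a gene. Arsb, the sulfatase of dermatan sulfate, went from 5356 to 6468, a log2 ratio of 0.27, with values from -0.15 among its dim probe sets. Galns, which removes sulfate from keratan sulfate, went from 263.2 to 228.6, a log2 ratio of -0.20. Of the 8 genes 5 were above 0, and the median was 0.17.

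The glycosidases of glycoproteins and glycogen had 3 of 4 genes above 0 and a median of 0.18. Man2b1, lysosomal α-mannosidase, went from 2222 to 3252, or 1.46-fold, just under the 1.5-fold mark. Fuca1, α-fucosidase, went from 4289 to 4925, a log2 ratio of 0.20, with 0.35 and 0.64 by its dimmer probe sets. Manba, β-mannosidase, went from 925.9 to 1033, a log2 ratio of 0.16. All 3 glycoprotein enzymes were above WT. Gaa, the α-glucosidase that degrades glycogen, went from 2703 to 2256, a log2 ratio of -0.26, while its other probe set went from 1470 to 1759, a log2 ratio of 0.26. Its direction is therefore not settled.

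Lipa, acid lipase, which frees cholesterol from its esters, went from 748.9 to 959.3, a log2 ratio of 0.36. Its other probe sets gave 0.53 and 0.91, so all 3 read higher. Ppt1, which removes palmitate from proteins, went from 2390 to 2676, a log2 ratio of 0.16, with 0.62 by a dimmer probe set and 0.0073 by one that was under the floor in WT. Acp2, the widely expressed lysosomal acid phosphatase, had 930.0 in WT and 955.3 in CD47 KO, a log2 ratio of 0.04, with 0.21 and 0.23 by dimmer probe sets. Acp5, the tartrate-resistant phosphatase of osteoclasts and some macrophages, was under the floor on both arrays, at 53.4 in WT and 52.1 in CD47 KO, and has no ratio.

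The peptidases and the protective protein were all above WT by more than the spread between probe sets, with a median of 0.53 over 3 genes. Ctsa, which protects Glb1 and Neu1 from breakdown in a complex and is itself a carboxypeptidase, went from 2576 to 4633, or 1.80-fold. A much dimmer probe set of Ctsa gave 0.14. Lgmn, the asparaginyl endopeptidase that also processes cathepsins, went from 3246 to 4693, or 1.45-fold. Tpp1, a tripeptidyl peptidase lost in late infantile neuronal ceroid lipofuscinosis, went from 3408 to 4450, a log2 ratio of 0.38, with 0.62 by its other probe set. Of the protective complex, Ctsa and Glb1 had log2 ratios of 0.85 and 0.53, and Neu1 had 0.07.

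Both regulators were over 1.5-fold higher. Grn, progranulin, a secreted and lysosomal protein whose granulin fragments support lysosomal function and whose loss disturbs microglia, went from 5519 to 9927, or 1.80-fold. Its other probe sets went from 4296 to 8823 and from 1530 to 3792, log2 ratios of 1.04 and 1.31, so that all 3 read higher. Tfeb, the transcription factor that activates many lysosomal genes, went from 203.5 to 387.9, or 1.91-fold, and was read by 1 probe set in the dim range of the array.

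**Figure D3:**
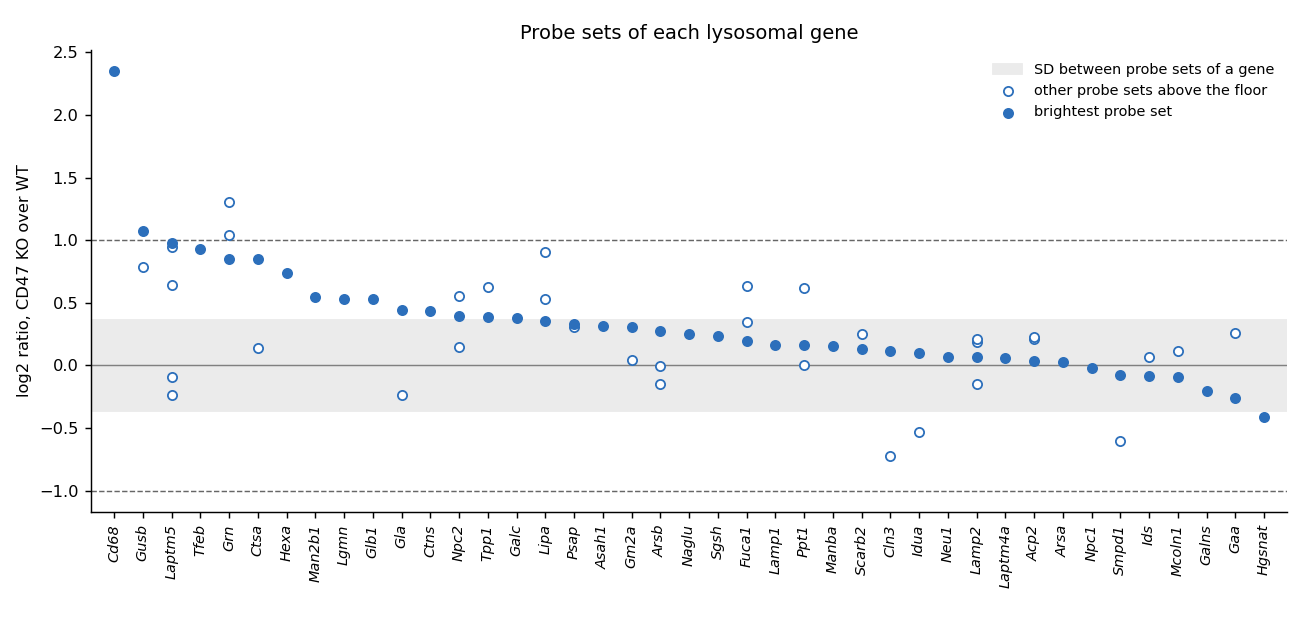
Log2 ratio (CD47 KO over WT) for each probe set above the floor of each measured lysosomal gene, with filled points for the brightest and open points for the others. The grey band spans 0.36 on either side of 0, the SD of the difference between probe sets of a gene, and dashed lines mark 2-fold. Grn, Gusb and Lipa keep all their points above 0, while Laptm5, Gaa and Cln3 have points on both sides.

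The array held 94 probe sets for the 42 genes, and 75 of them were above the floor on at least 1 array. Of the 22 genes with more than 1 such probe set, 12 had all ratios above 0, 9 had ratios on both sides of 0 and 1, Smpd1, had all below. Like counts for all genes are not given here, so these do not show whether the lysosomal genes differ from others. Some dim ratios, as in Arsb, Gla, Idua and Ppt1, were taken with a signal set to the floor. Of the genes over 1.5-fold higher, Gusb and Grn were read as higher by every probe set, Ctsa likewise though its dimmer one by little, and Laptm5 was not. Cd68, Tfeb and Hexa had 1 probe set and no such check.

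TFEB and its relatives bind an E-box element in the promoters of many lysosomal genes, and the core of that element, TCACGTG, was searched on both strands, where it reads CACGTGA on the other one. The windows searched were RefSeq promoters of the mouse assembly GRCm38.p6, from 250 bases before to 50 after each annotated start, and a site that matched on both strands counted once. Of all genes with a window 4.29% held the motif, and 8.09% held the shorter E-box CACGTG that it contains. Windows were found for 38 of the 42 genes, with none for Npc1, Asah1, Galns and Hgsnat, and 11 of the 38 (28.9%) held the motif. The 11 were Ctsa, Lgmn, Glb1, Gla, Naglu, Sgsh, Lamp1, Cln3, Arsa, Mcoln1 and Gaa. A match is a description of these letters and not a measured binding site.

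The stretches below show the motif in the 3 genes with the highest ratios among the 11 and in Lamp1, which held the most sites. Gaa is shown as well, with the lowest ratio of the 11 by brightest probe set. Capitals mark the motif, with the base after it where it runs on as TCACGTGA, and each stretch reads 5′ to 3′ on the strand of its gene. They lie at chr2:164833750-164833794 on the + strand (Ctsa), chr12:102439126-102439152 on the - strand (Lgmn), chr9:114401019-114401045 on the + strand (Glb1), chr8:13159089-13159161 on the + strand (Lamp1) and chr11:119267812-119267838 on the + strand (Gaa).
Ctsa: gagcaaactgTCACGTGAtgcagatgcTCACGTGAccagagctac
Lgmn: ggaatgtctgTCACGTGgtccatttta
Glb1: tgcttctgagTCACGTGgcctacagag
Lamp1: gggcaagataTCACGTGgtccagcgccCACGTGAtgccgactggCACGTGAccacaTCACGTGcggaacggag
Gaa: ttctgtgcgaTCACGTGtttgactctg

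Ctsa, with a log2 ratio of 0.85, held 2 sites, at 13 bases before and 4 bases after an annotated start. Lamp1, with a log2 ratio of 0.17, held 4 sites, all within 75 bases before its start. No other of the 11 genes held as many sites as Lamp1, and a relation of the number of sites to the ratio was not tested. Over the 11 genes there were 18 sites, of which 12 lay within 75 bases before the start.

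**Figure D4:**
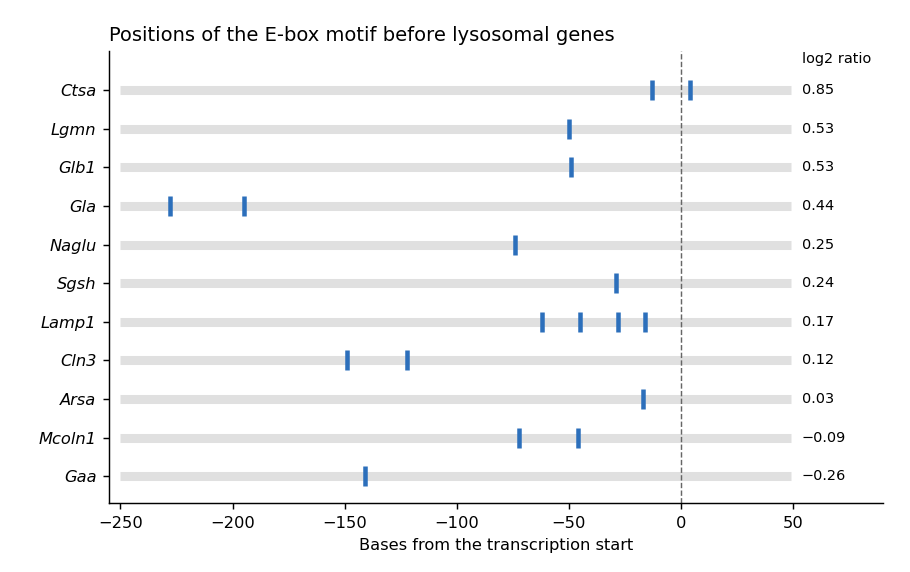
Positions of the motif TCACGTG or its reverse complement (blue marks) in the promoter windows (grey, from 250 bases before to 50 after the start) of the 11 lysosomal genes that held it, ordered by their log2 ratio (CD47 KO over WT), printed at the right. Most sites lie within 75 bases before the start, in genes from Ctsa, with the highest ratio at 0.85, to Mcoln1 at -0.09. Mcoln1 and Gaa, the genes with a ratio below 0, were read above 0 by their other probe set above the floor.

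The ratios of genes with and without the motif are given side by side, with no test. The 11 with it had a median log2 ratio of 0.24, from -0.26 to 0.85, and the 26 measured genes with a window and no motif had a median of 0.32. The lowest value is that of Gaa, whose other probe set gave 0.26. Of the 7 genes over 1.5-fold higher, all had a window and 1, Ctsa, held the motif. The 150 bases before the start of Cd68, at chr11:69666171-69666320 on the - strand, are shown as the promoter of the gene with the highest ratio, and they hold neither the motif nor the shorter E-box.
Cd68: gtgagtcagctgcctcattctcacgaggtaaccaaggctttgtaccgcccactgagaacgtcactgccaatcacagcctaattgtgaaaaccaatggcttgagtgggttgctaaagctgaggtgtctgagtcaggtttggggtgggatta

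Other lysosomal genes were read in 6 further lists. These hold 138 genes, of which 119 were measured, with a joint median of 0.02. Above 0 were 63 genes, beside 46.8% of all measured genes. Over 1.5-fold lower were 3, beside 4.68%, and over 1.5-fold higher were 12, beside 4.02%. Of these 12, 7 were cathepsins, the main lysosomal proteases, whose 11 measured genes had a median of 0.75. Over 2-fold higher were Ctsd, from 5083 to 14496 (log2 ratio 1.51), Ctsz at 1.30, Ctse at 1.11 and Ctsc at 1.04. The 18 further hydrolases and cofactors had a median of -0.02 and 8 genes above 0. Pla2g15, a lysosomal phospholipase, went from 292.4 to 512.4 (0.81), Ifi30, a thiol reductase that serves antigen presentation, from 1086 to 1720 (0.66), and Hyal2, a hyaluronidase, from 200.6 to 135.4 (-0.57).

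The 26 other membrane proteins had a median of -0.02 with 10 above 0. Over 2-fold higher were Slc15a3, a peptide and histidine transporter, from 131.7 to 451.9, and Slc11a1, a metal ion transporter of phagocytes, from 359.4 to 767.1. Ncstn, a subunit of γ-secretase, had 187.1 in WT and lay under the floor in CD47 KO, so its log2 ratio of -0.81 is a bound. The vacuolar proton pump, which acidifies the lysosome, had a median of -0.04 over 19 genes, 9 of them above 0. Its subunit Atp6v0d2 was under the floor in WT and at 398.2 in CD47 KO, at least 3.74-fold higher. Atp6v1g2, a subunit used by neurons, had a log2 ratio of -0.77 and Atp6v1d one of -0.54.

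Sorting and regulation differed less. The 23 genes of mannose 6-phosphate and sortilin sorting, which bring the hydrolases to the lysosome, had a median of 0.05 with 14 above 0, and the widest ratios were those of the adaptors Gga1 at 0.30 and Ap1m1 at 0.26 and of Nagpa, which uncovers the mannose 6-phosphate tag, at 0.27. None of the 23 was over 1.5-fold in either direction, beside 4.02% of all measured genes higher and 4.68% lower. The 22 genes of the TFEB family and autophagy had a median of 0.04 with 13 above 0 and none over 1.5-fold. Here the widest were Mitf, a relative of Tfeb, at 0.36, Atg7, an enzyme of autophagosome formation, at -0.32 and Rragd, a GTPase of nutrient sensing at the lysosome, at 0.27. Tfe3, another relative, had -0.23, and Tfec was under the floor.

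**Figure D5:**
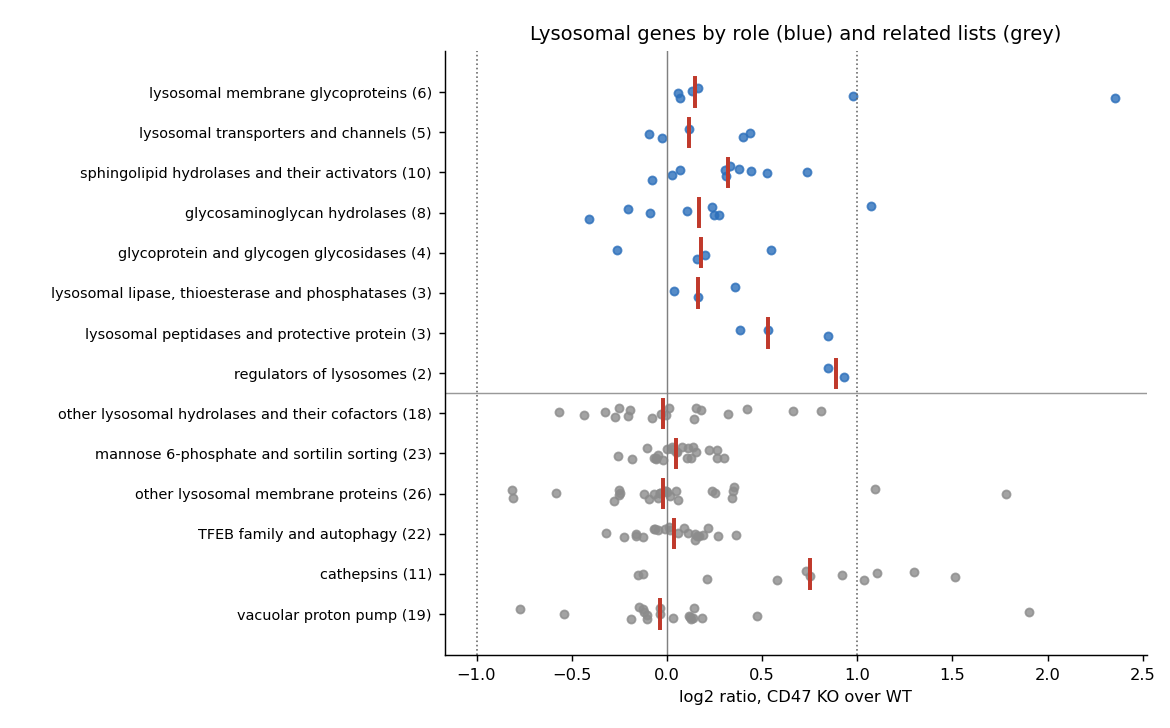
Log2 ratio (CD47 KO over WT) for each measured gene, by role group of the 42 lysosomal genes (blue) and for 6 further lysosomal lists (grey), with the number of measured genes in brackets. Red bars are medians, dotted lines mark 2-fold, and vertical scatter within a row has no meaning. Among the further lists the median of the cathepsins is 0.75 and those of the others lie between -0.04 and 0.05.

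General markers of microglia and macrophages were higher in CD47 KO, while the more specific marker lists went different ways. All 7 general markers were higher in CD47 KO, with log2 ratios from 0.08 for Spi1 to 1.38 for Ptprc and a median of 0.96, and their summed signal went from 20195 in WT to 31695 in CD47 KO, or 1.57-fold. Among them Aif1 went from 1079 to 2094 (0.96) and Csf1r from 15765 to 21741 (0.46). The 7 markers of homeostatic microglia did not move together, with 4 above 0 and 3 below and sums of 7493 and 8269, and Tmem119 had -0.52. Of 6 measured markers of perivascular macrophages 1 was higher, and the sums, with Cd209f under the floor counted in, were 3892 and 3311. Monocyte and granulocyte markers were mostly higher, with 6 of the 7 measured above 0 and a median of 0.36. Their sums, with Ccr2 counted in, were 3231 and 3836. Ccr2 was under the floor on both arrays, and so were 4 of 6 osteoclast markers.

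The astrocyte markers summed to 76247 in WT and 87834 in CD47 KO. In bulk tissue a larger number of cells of a type cannot be told apart from more RNA per cell. The log2 ratio of Cd68, at 2.35, was above that of each of the 7 general markers. These markers ranged widely, from 0.08 for Spi1, which was close to the floor, to 1.38 for Ptprc. Most measured lysosomal genes lay within that range, so lying within it does not set a gene apart. Among them were Laptm5, Tfeb, Grn, Ctsa and Hexa, from 0.74 to 0.98, and Gusb at 1.07. The part of microglial number in the lysosomal values was not tested.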

How the data were processed

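Total RNA of optic nerve and optic tract from several male mice per genotype was pooled, turned into biotinylated cRNA and run on Affymetrix GeneChip arrays of the mouse genome, 1 for each genotype. The authors processed the scans with Expression Console, and MAS5 is named in the submitters' processing notes without a version. The deposited values are MAS5 signal intensity on a linear scale, each array scaled to a trimmed mean of 500.003 (2% left out at each end). Array medians were 107.8 (WT) and 105 (CD47 KO). Such scaling sets the trimmed mean of both arrays equal, so a ratio is relative to the rest of the array.

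Of 45101 probe sets 64 were controls. The platform annotation gave 1 symbol to 34945 of the others, several to 932 and none to 9160, and 34741 were matched by gene identifier to the RefSeq table of GRCm38.p6. The brightest probe set by mean log2 signal stood for a gene, signals under the floor were set to it, and log2(CD47 KO/WT) was taken in Python 3.11.15 with pandas 2.3.3, numpy 2.4.6, scipy 1.17.1 and statsmodels 0.14.6. Figures were drawn with matplotlib 3.10.9. The steps were tested on simulated data.

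The 42 genes, their roles and the other lists were chosen with earlier results of these data known. All 42 are named. Of each other list the 3 genes with the largest absolute log2 ratio are named, and those over 2-fold where there were 5 or fewer. Tfe3, Tfec and the marker genes were named for their role, and the motif was chosen after the values were seen. Genes of the lists without a probe set under 1 symbol were not analysed here. The 8 alternatives were floors at the 40th and 60th percentile, no floor, quantile normalisation, centring on the median, lowess, the median over the probe sets of a gene, and leaving out probe sets with suffixes for possible cross-hybridisation. The number of arrays limits the precision.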

Additional observations from a re-analysis of the deposited data

How the results depend on the processing

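Over the 8 alternatives the median log2 ratio of the 41 lysosomal genes lay between 0.21 and 0.29, with that of all measured genes between -0.02 and 0.02. From 32 to 35 genes were above 0, 2 to 3 over 2-fold higher and 6 to 8 over 1.5-fold higher. Man2b1 joined the latter when the arrays were centred on the median, Ctsa left them by the median over probe sets (0.49), and Laptm5 left them without probe sets of possible cross-hybridisation, when a dim probe set at -0.09 remained. By the median over probe sets, the group median of the glycosaminoglycan hydrolases was -0.0076 and that of the sorting genes -0.021, both from above 0. Without the cross-hybridising kinds of probe set the median of both regulators was 1.12, with Grn at 1.31 and Gaa at 0.26. Of 328 values of single lysosomal genes under the alternatives 11 moved by more than 0.26. This limit is the SD of a single probe set (that of the difference between probe sets divided by the square root of 2). The floor settings could not move these values, as all 41 genes were above each floor on both arrays. Centring on the median shifted all ratios by the same small amount. All 11 came from the settings that change which probe sets are used. Besides those named, they were Cln3 (-0.30), Gla (0.11), Smpd1 (-0.34), Idua (-0.22), Arsb (-0.0055), Gaa (-0.0011) and Laptm5 (0.64), all by the median over probe sets, where Cln3, Idua and Arsb changed sign. The cause was not tested. No paired analysis was possible because there is 1 array per genotype, and signals near the floor limit what dim genes can show.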
